A study of Homo sapiens with 6 samples.

Results

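The transcription factors CDX1, CDX2, HNF4A, HNF4G, GATA6, KLF5, ELF3 and ATOH1, which set cell identity in the intestinal epithelium, were followed in colorectal cancer cells with and without CNOT7 knockdown. These 8 genes were taken by their symbols from the 58735 genes of the count table. CDX1 and CDX2 are homeobox factors that set intestinal identity, and HNF4A and HNF4G are nuclear receptors that act with them on genes of the brush border and of lipid handling. GATA6 is a zinc-finger factor of gut endoderm, KLF5 a zinc-finger factor of dividing crypt cells, ELF3 an epithelial ETS factor needed for enterocyte and goblet cell maturation, and ATOH1 the basic helix-loop-helix factor that starts the secretory lineage. In the crypt, Notch signalling through HES1 represses ATOH1, so that a cell becomes absorptive where HES1 is high and secretory where ATOH1 is high.

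Control cells and CNOT7 knockdown cells were each sequenced as 3 RNA libraries. CNOT7 is a deadenylase of the CCR4-NOT complex, which shortens the poly(A) tails of mRNAs. All libraries were labelled as the human colorectal cancer line SW480 with no treatment, whereas the study's text names HCT116, another colorectal cancer line, for the sequenced cells. The knockdown cells were a line with stable expression of an shRNA, and the columns of the count table name the control libraries shNc. Which shRNA each knockdown library carries, the sequence behind the name shNc, and whether a line came from 1 clone are not stated in the sources used here. No source says that the libraries of a group came from separate cultures, so the p-values measure the spread between these libraries, which may be technical.

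The libraries held 23788451 to 29104872 counts, and a gene with no count in a library could still be present at up to 0.101 to 0.129 CPM (counts scaled to library size), the level of 3 counts there. Intervals and floors of this kind cover counting error only. CNOT7 itself stood at 169, 191 and 176 CPM in the control libraries and at 43.4, 47.2 and 38.6 CPM in the knockdown libraries. It fell by 2.05 on the log2 scale (SE 0.0734, adjusted p = 2.64e-12), as tested with edgeR's quasi-likelihood test and Benjamini-Hochberg adjustment over the 17574 genes that passed the filter on low counts. This test gives every adjusted p below unless another is named. Of those genes 25.2% were called at an adjusted p under 0.05 (13.3% higher and 11.9% lower in knockdown), and 38.8% had groups that did not overlap.

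Promoter sequence is shown for HNF4A and for ELF3, the factor called below. HNF4A has a distal start, known as P2, and a proximal start, known as P1, and the counts sum the transcripts of both. The 150 bases before each start are given from RefSeq on GRCh38.p14, where 6 of the 8 factors had an entry, as chr20:44355549-44355698 for P2 and chr20:44401089-44401238 for P1, both on the plus strand. The starts lie 45540 bases apart, and no exon is annotated in either window. Capitals mark matches to GATAA (read by GATA factors), GTTAAT (a homeodomain word), CACCC (read by KLF factors), TATAAA (the TATA box), CCAAT (the box of that name) or GGAAG (the core read by ETS factors), searched on both strands.
HNF4A P2: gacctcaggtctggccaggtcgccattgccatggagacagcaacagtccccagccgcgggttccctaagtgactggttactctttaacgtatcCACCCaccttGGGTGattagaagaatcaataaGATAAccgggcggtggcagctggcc
HNF4A P1: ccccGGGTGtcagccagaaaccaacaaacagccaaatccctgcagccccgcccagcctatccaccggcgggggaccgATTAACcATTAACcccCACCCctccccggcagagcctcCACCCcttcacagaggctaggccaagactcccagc
ELF3: caggggacacacTATAAAgccctgagctca

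The P1 window held 2 copies of GTTAAT, read on the minus strand as ATTAAC, and the P2 window held none. GTTAAT occurred in 3.52% of the 35116 windows of this length in the table. The P2 window held GATAA, which 12.2% of windows hold, and both windows held CACCC, which 39.6% hold. The ELF3 sequence is the 30 bases chr1:202010541-202010570 on the plus strand, with TATAAA starting 34 bases before the start, a word that 6.71% of windows hold. It is a stretch cut around that match. Exons of ELF3 and of the antisense gene ELF3-AS1 are annotated in the 150 bases from which it was taken. A CCAAT match starting 73 bases before the start lies outside the stretch. These are exact matches of letters and not measured sites, and a site spelt with other letters is not marked in any window.

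Among the 8 factors, 1 rose in CNOT7 knockdown cells (ELF3), none fell, 4 were measured without passing the test (KLF5, CDX2, HNF4A and GATA6), and 3 were too low to test (CDX1, HNF4G and ATOH1). All 5 tested factors were above the CPM level of the filter on low counts in every library of both groups. That level is 10 counts in a library of median size. Against the 25.2% called over all tested genes, 1 of 5 tested factors was called. At an unadjusted p under 0.05, 3 of the 5 were called. The share over all tested genes at that threshold was not computed, so this count cannot be set against other genes. The median log2 fold change of the 5 tested factors was 0.04, and that of all tested genes was 0.00.

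**Figure D1:**
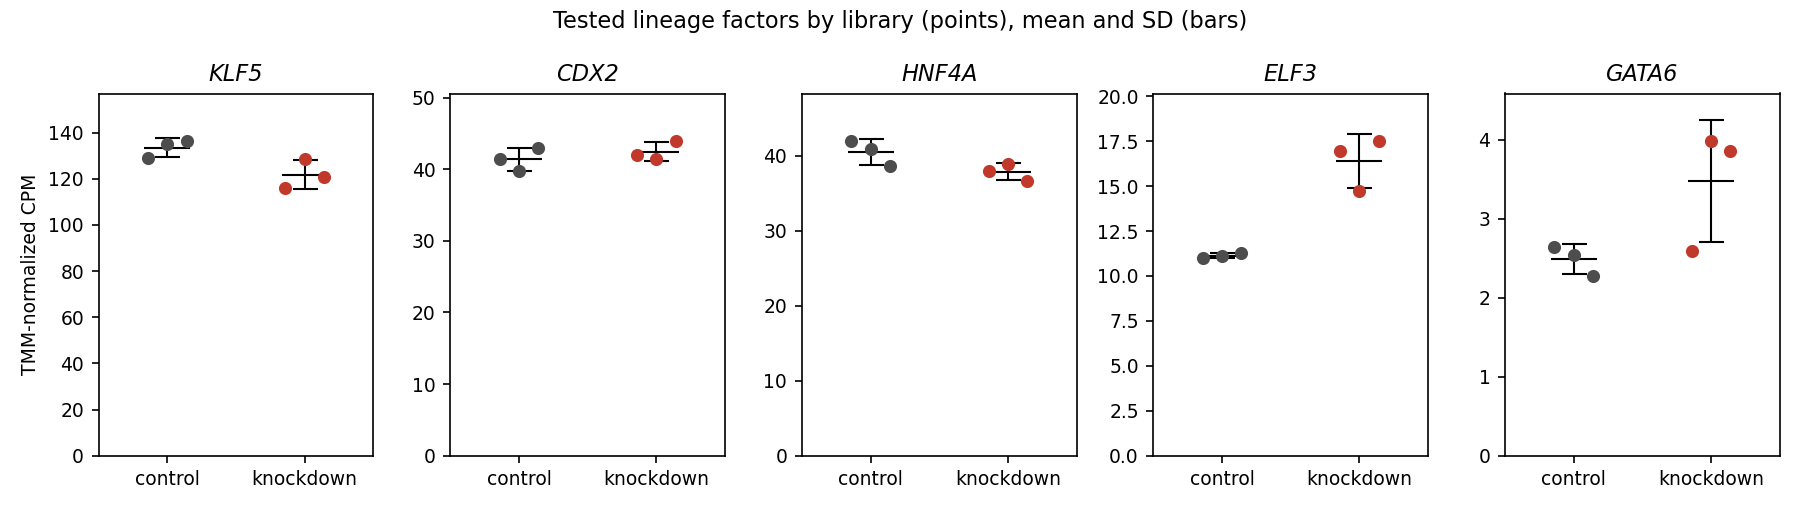
TMM-normalized CPM (y axes, each from 0 with its own scale) of the 5 tested lineage factors in the control and knockdown libraries, with points for libraries and bars for the mean and SD of 3. ELF3 stands higher in every knockdown library than in every control library, whereas 1 of the 3 knockdown libraries of GATA6 lies at 2.59 CPM, within the control range.

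ELF3 (ENSG00000163435; chr1:202007945-202017188, plus strand, GRCh38) stood at 11.0, 11.1 and 11.3 CPM in the control libraries and at 17.0, 14.7 and 17.5 CPM in the knockdown libraries. The lowest knockdown library was above the highest control library. ELF3 rose 1.47-fold, a log2 fold change of 0.56 (SE 0.0978, 95% interval 0.35 to 0.77, adjusted p = 0.00042). Its coefficient of variation was 1.43% in control and 9.08% in knockdown libraries. ELF3 shares 18.5% of its 7191 exonic bases with other genes, among them the antisense gene ELF3-AS1, and without a stated strand setting reads in shared bases cannot be assigned to either. ELF3-AS1 held 286 counts in the control and 384 in the knockdown libraries (log2 fold change 0.22, adjusted p = 0.311). RNPEP, which lies 1798 bases from ELF3, had a log2 fold change of -0.06 (adjusted p = 0.543).

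Over the 6 libraries the genes whose log2 CPM followed ELF3 most closely were HDAC4, a class II histone deacetylase, with Pearson's r = 0.999, and ITGA5, the fibronectin receptor subunit integrin alpha 5, with r = 0.998. HDAC4 rose from a mean of 95.2 to 118.6 CPM (log2 fold change 0.32) and ITGA5 from 106.4 to 144.6 CPM (log2 fold change 0.44). All 3 share the difference between the groups, and 749 of the 10107 genes compared had r over 0.9, so such values describe the pattern and test nothing.

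GATA6 (ENSG00000141448; chr18:22169443-22202528, plus strand) stood at 2.65, 2.54 and 2.27 CPM in the control libraries and at 2.59, 3.99 and 3.86 CPM in the knockdown libraries. Knockdown replicates 2 and 3 were above every control library and knockdown replicate 1 was not, so the groups overlapped. The log2 fold change was 0.48 (SE 0.192, 95% interval 0.08 to 0.89, adjusted p = 0.074). With the replicate number as a block the adjusted p was 0.0453, and without knockdown replicate 1 the log2 fold change was 0.65 (adjusted p = 0.0241), whereas with cyclic loess offsets, which remove a trend with abundance, it was 0.35 (adjusted p = 0.206). The raw counts were 57 to 68 in control and 73 to 115 in knockdown libraries, and 14.2% of the 3945 exonic bases of GATA6 are shared with other genes, GATA6-AS1 included. GATA6-AS1 held 19 counts in the control and 16 in the knockdown libraries and was not tested.

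KLF5 (ENSG00000102554; chr13:73054976-73077542, plus strand) had the highest level of the 8. Its values were 129, 135 and 136 CPM in the control libraries and 116, 129 and 121 CPM in the knockdown libraries. Every knockdown library was below every control library, with knockdown replicate 2 and control replicate 1 almost equal. The log2 fold change was -0.13 (SE 0.0574, 95% interval -0.25 to -0.01, adjusted p = 0.106). With the replicate block its adjusted p was 0.00729, and without knockdown replicate 2 the log2 fold change was -0.17 (adjusted p = 0.0267), whereas with cyclic loess offsets it was -0.08 (adjusted p = 0.333). Under the block 3 of the 5 tested factors were called, ELF3, GATA6 and KLF5, beside 37% of all tested genes.

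CDX2 (ENSG00000165556; chr13:27962137-27971139, minus strand) stood at 41.4, 39.8 and 43.0 CPM in control and at 42.0, 41.4 and 44.0 CPM in knockdown libraries. The groups overlapped, with a log2 fold change of 0.04 (SE 0.0673, 95% interval -0.11 to 0.18, adjusted p = 0.745). HNF4A (ENSG00000101076; chr20:44355700-44434596, plus strand) stood at 42.0, 40.8 and 38.6 CPM in control and at 37.9, 38.9 and 36.7 CPM in knockdown libraries. These groups overlapped too, with a log2 fold change of -0.10 (SE 0.0686, 95% interval -0.24 to 0.05, adjusted p = 0.332). Because the counts are per gene, a shift between the P1 and P2 transcripts of HNF4A could not be seen here.

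The 3 untested factors were nearly silent. CDX1, the paralog of CDX2 (ENSG00000113722; chr5:150166795-150184558, plus strand), had 0, 0 and 0 counts in the control and 4, 0 and 1 counts in the knockdown libraries. HNF4G (ENSG00000164749; chr8:75407914-75566843, plus strand) had 0, 3 and 6 counts in the control and 0, 3 and 2 counts in the knockdown libraries, a ratio of knockdown to control, scaled to library size, of 0.481 with a counting interval of 0.127 to 1.60. ATOH1 (ENSG00000172238; chr4:93828753-93830964, plus strand) had 0 counts in all 6 libraries. A difference between the groups was not detectable at this depth for these 3 genes.

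Levels were compared between genes as TPM, which divides each count by the gene length of the file before scaling to the library. The order was the same in both groups. Mean TPM in control and knockdown was 123.1 ± 2.68 and 115.9 ± 4.74 for KLF5 and 36.1 ± 1.30 and 38.2 ± 1.69 for CDX2 (SD, n = 3 per group). It was 19.9 ± 1.03 and 19.2 ± 0.333 for HNF4A, 5.56 ± 0.0277 and 8.46 ± 0.886 for ELF3, and 2.26 ± 0.194 and 3.26 ± 0.709 for GATA6 (SD, n = 3 per group). Neighbours in this order of 5 did not overlap in either group, whereas HNF4G, CDX1 and ATOH1 below them could not be ordered. ELF3 stood 3.58 times below HNF4A in control cells and 2.27 times below it in knockdown cells, and 2.46 and 2.59 times above GATA6. The summed TPM of the 8 was 185.3 to 188.6 in control and 179.9 to 187.8 in knockdown libraries. KLF5 made up 64.8 to 66.5% of that sum in control and 61.7 to 64.2% in knockdown libraries, and ELF3 2.96 to 2.99% and 3.97 to 4.89%.

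KLF5 and CDX2 both lie on chromosome 13. For either factor, 78 of the 307 other tested genes there were called higher and 22 lower (median log2 fold change 0.125). Over all tested genes 13.3% were called higher and 11.9% lower. Of the 16 other tested genes within 5 Mb of KLF5, 7 were called higher and none lower, with a median of 0.23, on the other side of 0 from KLF5 itself at -0.13. A gene near it, PIBF1, 38515 bases away, rose with a log2 fold change of 0.39 (adjusted p = 0.00199). Around CDX2, 13 of 50 genes were called higher and 5 lower (median 0.11), and PDX1, the pancreas and duodenum homeobox factor 35906 bases away, had a log2 fold change of 0.12 (adjusted p = 0.522). Within 5 Mb of ELF3 the median was 0.07, of GATA6 0.05 and of HNF4A 0.04. The part of such shared shifts in the values of KLF5 and CDX2 was not tested.

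**Figure D2:**
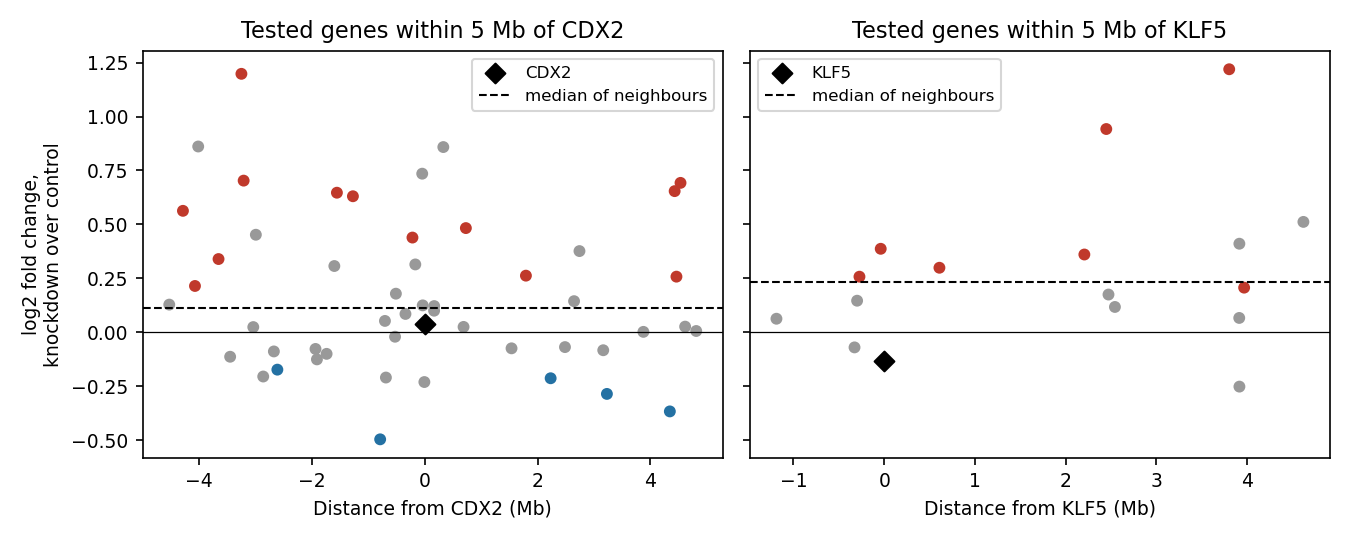
Log2 fold change, knockdown against control (y axis), of the tested genes within 5 Mb of CDX2 (left) and of KLF5 (right) by their distance from it in Mb (x axis), red where called higher, blue where called lower and grey where not called. The diamond is the factor and the dashed line the median of its neighbours, and KLF5 lies at -0.13 below a median of 0.23, and CDX2 at 0.04 below one of 0.11.

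The wider set of gut transcription factors held 40 genes, of which 25 were tested, 12 were called higher and 4 lower, which is 64% called against 25.2% of all tested genes. Their median log2 fold change was 0.36. This list and those below were chosen with earlier results of these data known, so their shares describe the lists and test nothing. Medians over all genes moved with level, from 0.156 for tested genes with a log2 CPM up to 1 to -0.0581 for those above 7. Of the 12 called higher, 11 were above the CPM level of the filter on low counts in every library of both groups. Of the 3 FOXA factors tested, FOXA2 and FOXA3 rose, and FOXA1 had a log2 fold change of 0.41 (adjusted p = 0.1935). FOXA2, a pioneer factor of endoderm, rose from 9.65, 10.2 and 10.3 CPM to 15.5, 14.6 and 17.2 CPM (log2 fold change 0.65, adjusted p = 0.000112).

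FOXA3 rose from a mean of 0.88 to 1.74 CPM (log2 fold change 0.98, adjusted p = 0.00726). NR5A2, a nuclear receptor of crypt cells, rose from 0.524 to 1.13 CPM (log2 fold change 1.10, adjusted p = 0.0135), a call lost without control replicate 2 (adjusted p = 0.0538). CREB3L1, a membrane-bound factor of secretory cells, rose from 2.65 to 5.02 CPM (log2 fold change 0.93, adjusted p = 0.00122). MAF, a leucine-zipper factor of mature enterocytes, had 13 counts in the control and 71 in the knockdown libraries (log2 fold change 2.22, adjusted p = 0.00318). It was the 1 tested gene of the set above the filter's CPM level in every knockdown library and not in every control library.

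EHF, the closest relative of ELF3 in the set and named after its values were seen, stood at 17.6, 20.9 and 20 CPM in control and 25.7, 29 and 25 CPM in knockdown libraries. The groups did not overlap, with a log2 fold change of 0.45 (adjusted p = 0.00136) beside 0.56 for ELF3, and EHF shares no exonic base with another gene. VDR, BCL6, ONECUT2, ASCL2 and ISL1 were called higher too, also named after their values were seen, with log2 fold changes of 0.36 to 0.54. ASCL2 (adjusted p = 0.016) lost its call without control replicate 2, knockdown replicate 1 or knockdown replicate 3, and ISL1 (adjusted p = 0.0344) without replicate 2 or 3 of either group, with adjusted p-values of 0.0536 to 0.0909 and 0.0648 to 0.113. ISL1 also lost it under DESeq2 (adjusted p = 0.0659) and with cyclic loess offsets (adjusted p = 0.112).

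HES1, the Notch effector that represses ATOH1, stood at 22.3, 22 and 22.4 CPM in control and 13.9, 12.5 and 14.2 CPM in knockdown libraries. It fell by 0.71 on the log2 scale (SE 0.0865, adjusted p = 1.14e-05), while ATOH1 stayed at 0 counts. PRDM1, a zinc-finger repressor of the fetal gut epithelium, fell by 0.62 on the log2 scale, from 23.2 to 15.1 CPM (adjusted p = 4.76e-05). PAX6, a factor of enteroendocrine cells named after its values were seen, was also called lower, at -0.34 (adjusted p = 0.00182). SOX9, the crypt factor that had the highest TPM among those not called, was at 241 TPM in control and 245 TPM in knockdown cells, with a log2 fold change of -0.02 (adjusted p = 0.774). KLF3 and TCF7L2, the next in level, had log2 fold changes of 0.08 and 0.04. GATA4 had 1 count in all, and GATA5 and CDX4 had none.

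**Figure D3:**
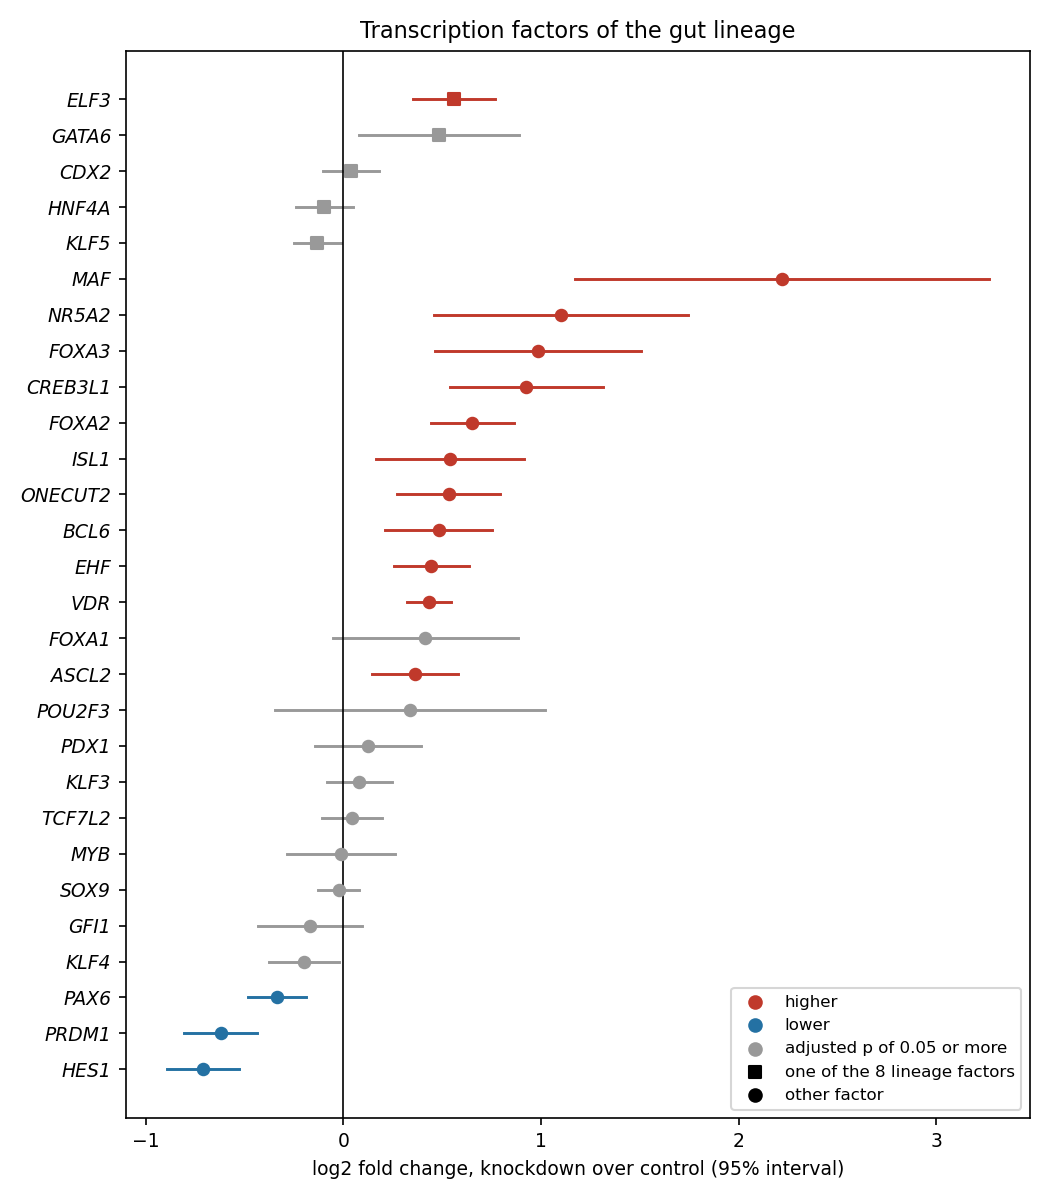
Log2 fold change, knockdown against control (x axis), with its 95% interval for the 5 tested lineage factors (squares) and 23 of the 25 other tested gut transcription factors (circles), red where called higher, blue where called lower and grey where the adjusted p was 0.05 or more. ELF3 at 0.56 is the called point among the 5, and MAF at 2.22 and HES1 at -0.71 are the ends of the wider set.

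Genes of absorptive enterocytes, which these factors act on in normal gut, were measured from a list of 30. Of these, 12 were tested, 6 were called higher and none lower, which is 50% called against 25.2% of all tested genes, with a median log2 fold change of 0.23. The summed TPM of the list was 147.8 to 148.5 in control and 202.8 to 213.1 in knockdown libraries. SLC5A1, the sodium-glucose cotransporter SGLT1, stood at 0.584, 0.559 and 0.598 CPM in control and 4.97, 4.28 and 3.86 CPM in knockdown libraries (log2 fold change 2.90, SE 0.22, adjusted p = 4.65e-08). ALPI, intestinal alkaline phosphatase, had 4, 2 and 8 counts in control and 43, 37 and 38 counts in knockdown libraries (log2 fold change 2.84, SE 0.399, adjusted p = 5.06e-05). It was not above the filter's CPM level in every control library, so its passing the filter rests on the knockdown libraries. The other 5 called genes were above that level in every library.

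Among genes of the microvillus, USH1C, the scaffold harmonin, stood at 30.3, 31.2 and 33.1 CPM in control and 68.5, 62.4 and 64 CPM in knockdown libraries (log2 fold change 1.04, SE 0.0686, adjusted p = 9.05e-09). VIL1, the actin bundler villin, stood at 22.2, 18.4 and 19 CPM in control and 35.4, 28.5 and 34.1 CPM in knockdown libraries (log2 fold change 0.72, SE 0.0955, adjusted p = 2.93e-05). VIL1 shares 44.0% of its exonic bases with other genes, 3045 of them on the opposite strand with USP37, which itself fell by 0.41 on the log2 scale (adjusted p = 0.000657). CEACAM1, an adhesion molecule of the apical membrane, rose from 8.52 to 20.1 CPM (log2 fold change 1.24, adjusted p = 8.17e-08). EPS8L3 rose from 34.6 to 40.6 CPM (log2 fold change 0.23, adjusted p = 0.0313), a call lost without control replicate 2 or 3 or knockdown replicate 1 or 3 (adjusted p-values of 0.085 to 0.136) or without the filter on low counts (adjusted p = 0.0595).

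The absorptive genes with the highest TPM among those not called were PLS1, the bundler fimbrin, at a log2 fold change of 0.10 (adjusted p = 0.288), SLC9A3, the apical sodium-proton exchanger, at 0.07 (adjusted p = 0.809), and CDHR2, a protocadherin that links microvilli, at 0.24 (adjusted p = 0.473). Some untested genes of mature colonocytes, named after their values were seen, were near 0 in both groups. FABP1 had no count, KRT20 had 4 and 3, CEACAM5 had 0 and 1, and CA1 had 2 and 0 summed counts in control and knockdown. Of the 18 untested genes of the list, 7 had no count, 8 had 1 to 9 and 3 had 10 or more. These 3 were DPP4 (2 and 30 counts), MYO1A (6 and 27) and LCT (5 and 9).

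**Figure D4:**
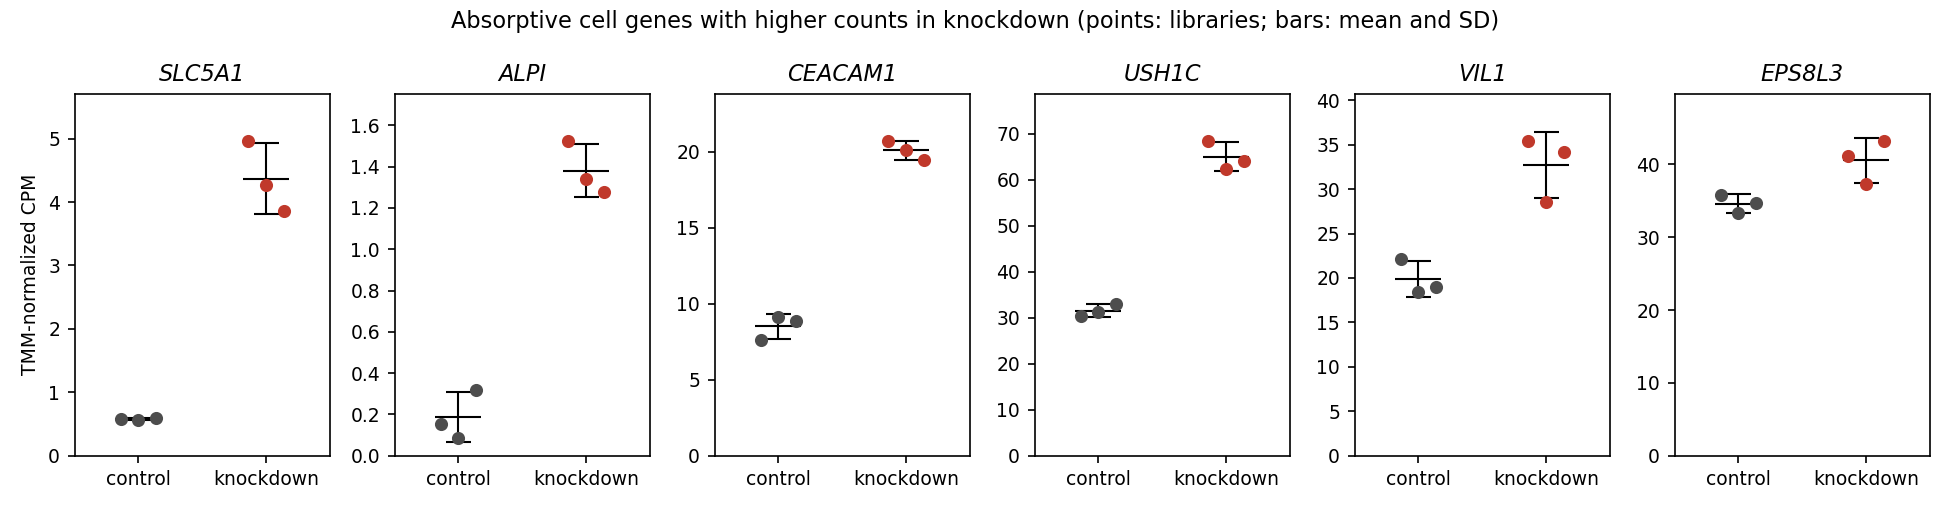
TMM-normalized CPM (y axes, each from 0 with its own scale) of the 6 absorptive cell genes called higher in knockdown, with points for libraries and bars for the mean and SD of 3. SLC5A1 has its control libraries at 0.559 to 0.598 CPM and its knockdown libraries at 3.86 to 4.97 CPM, and the gap is narrowest in EPS8L3.

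Of 24 known HNF4 target genes, 7 were tested, 1 was called higher (VIL1) and 1 lower (SERPINA1), which is 28.6% called, near the 25.2% of all tested genes. The median log2 fold change was 0.06. SERPINA1, the protease inhibitor alpha-1-antitrypsin, stood at 320, 314 and 313 CPM in control and 261, 258 and 275 CPM in knockdown libraries and fell by 0.25 on the log2 scale (SE 0.0499, adjusted p = 0.00118). Most classical targets were not measurable. APOA1, APOB, APOC3 and TTR, which encode plasma proteins of liver and gut, had at most 1 count in a group.

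Of 20 known CDX target genes, 7 were tested, 3 were called higher and none lower, which is 42.9% called against 25.2% of all tested genes, with a median log2 fold change of 0.68. Of the 5 tested genes above the filter's CPM level in every library of both groups, 2 were called. GPA33, the A33 antigen of intestinal epithelium, had 1, 4 and 0 counts in control and 16, 18 and 13 counts in knockdown libraries (log2 fold change 2.94, SE 0.652, adjusted p = 0.00304), a gene that also passed the filter through its knockdown libraries. ABCB1, the efflux pump P-glycoprotein, stood at 11.6, 12.3 and 12.6 CPM in control and 50.1, 54 and 50.3 CPM in knockdown libraries (log2 fold change 2.08, SE 0.0775, adjusted p = 4.47e-12). VIL1, which the HNF4 target and absorptive lists hold too, was the third. CDH17, the liver-intestine cadherin, had a log2 fold change of 0.68 (adjusted p = 0.135), and MUC2, the goblet cell mucin, one of -0.61 (adjusted p = 0.374). SI, the sucrase-isomaltase that is the best-known CDX2 target, had no count in any library.

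Of 30 genes of the secretory lineages, 11 were tested, 2 were called higher and none lower, which is 18.2% called, below the 25.2% of all tested genes, with a median log2 fold change of 0.01. DLL1, the Notch ligand of secretory progenitors, stood at 4.59, 5.29 and 4.87 CPM in control and 9.79, 8.26 and 9.3 CPM in knockdown libraries (log2 fold change 0.89, adjusted p = 4.26e-05). CHGB, chromogranin B of enteroendocrine granules, rose from 0.904 to 2.15 CPM (log2 fold change 1.25, adjusted p = 0.0011).

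**Figure D5:**
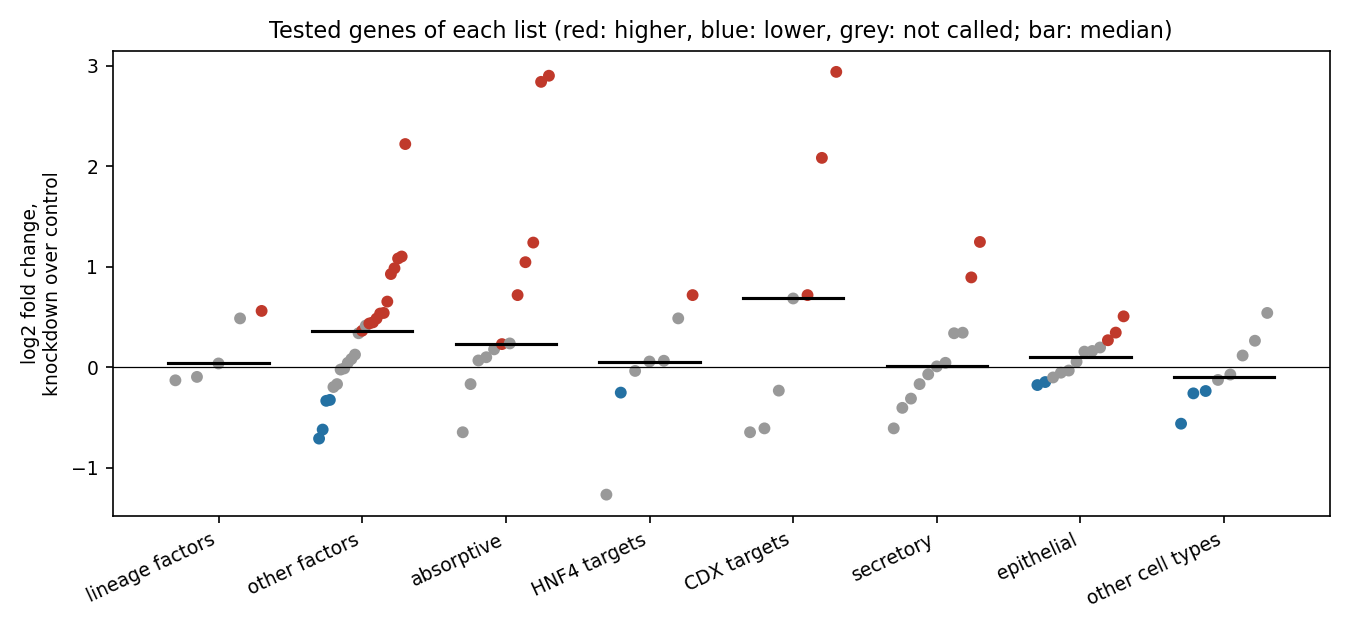
Log2 fold change, knockdown against control (y axis), of every tested gene in each list (x axis), red where called higher, blue where called lower and grey where not called, with the median of the list as a bar. The medians are 0.04 for the lineage factors, 0.36 for the other gut transcription factors, 0.23 for absorptive, 0.06 for HNF4 target, 0.68 for CDX target, 0.01 for secretory, 0.10 for epithelial and -0.10 for other cell type genes.

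The epithelial label was checked with 15 markers, of which 12 were tested, 3 were called higher and 2 lower, which is 41.7% called against 25.2% of all tested genes. EPCAM stood at a mean of 212 CPM in control and 220 CPM in knockdown cells (log2 fold change 0.05, adjusted p = 0.5). CDH1, E-cadherin, rose from 23.6 to 33.5 CPM (log2 fold change 0.51, adjusted p = 0.000155). The membrane protease ST14 and the splicing factor ESRP1 rose too, with log2 fold changes of 0.34 and 0.27, and the keratins KRT19 and KRT8 were called at -0.18 and -0.15, calls lost without replicate 1 or 3 of control or replicate 1 or 2 of knockdown (adjusted p-values of 0.0505 to 0.156). With cyclic loess offsets KRT19 was at -0.10 (adjusted p = 0.212) and KRT8 at -0.06 (adjusted p = 0.448), and the list had 4 called higher and 0 lower. KRT8 also lost its call with at least 10 counts required in every library (adjusted p = 0.0563). With the replicate block 8 of the 12 were called, beside 37% of all tested genes. The summed TPM of the list was 5615 to 6080 in control and 5364 to 6138 in knockdown libraries. Of 21 markers of gastric, hepatic, squamous, mesenchymal, immune and endothelial cells, 8 were tested, none was called higher and 3 were called lower (KRT5, VIM and SOX2, the last not without control or knockdown replicate 3, at adjusted p-values of 0.159 and 0.0666), which is 37.5% called against 25.2%, and their summed TPM was 3029 to 3242 in control and 2534 to 2806 in knockdown libraries, most of it KRT5. The other 5 tested markers, CLDN18, TFF2, ZEB1, COL1A1 and VWF, were measurable and not called, with log2 fold changes of -0.13 to 0.54. Among the untested markers, AFP and CDH2 had no count, and PTPRC had 0 and 4 and ALB 8 and 3 summed counts in control and knockdown. These untested markers were named after their values were seen. The part that a change in epithelial content of the libraries has in the rise of ELF3 and of the absorptive genes was not tested, and more cells of a type and more RNA per cell cannot be told apart in such libraries.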

How the data were processed

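RNA-seq libraries of 3 control and 3 CNOT7 knockdown samples were analysed, grouped by the labels. The authors deposited raw counts per gene, without normalization, and a gene length. The submitters' processing notes name CASAVA 1.8, fastp, HISAT2 2.0.5, featureCounts 1.5.0-p3 and DESeq2 1.20.0, and the build GRCh38. The strand setting is not given in the sources used here. Gene positions matched GENCODE on GRCh38. The number of columns of other samples left unused was 0.

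The 8 factors and the gene lists were chosen with earlier results of these data known. Counts were filtered (filterByExpr), normalized (TMM) and tested in edgeR 4.0.16 (R 4.3.3) with the quasi-likelihood test, with no replicate term and a Benjamini-Hochberg threshold of 0.05 over all 17574 genes tested. The SE was taken as |log2 fold change| over the root of the F statistic. CPM is TMM-normalized, and TPM was computed from counts and the gene length. The precision that this depth (23788451 to 29104872 counts) and 3 libraries allow is given by the SE or interval. Replicates of a group differed by more than sampling noise (chi-square per degree of freedom 3.05 to 9.62).

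Same-numbered libraries deviated together from their group means (r = 0.238, 0.649 and 0.108), all over 0.1, so the numbers were treated as pairs in the blocked fit. This pairing comes from the data, since the labels do not say what a number marks. Control replicate 1 correlated more with knockdown replicate 3 (r = 0.558), and control replicate 3 slightly more with knockdown replicate 1 (r = 0.113). The pairing is therefore uncertain.

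Genes named were CNOT7, the 8 factors, up to 8 called genes a list by absolute log2 fold change, up to 3 uncalled genes a list by TPM, the 2 genes most like each called factor (mean CPM of at least 10, log2 of CPM + 0.5), and genes near a factor. Others were named after their values were seen, and not all of them are marked where they appear. The unmarked ones include FOXA1, USP37 and genes named for having few or no counts. A few genes of the wider lists are counted but not reported by name here. Alternatives were DESeq2 1.42.0, RLE factors, no filter, at least 10 counts in every library, the block, cyclic loess offsets (limma 3.58.1), each library left out, unadjusted p-values and a minimum |log2 fold change| set at 1. Promoter words were searched with Python 3.11.15, and plots drawn with matplotlib 3.10.9.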

Additional observations from a re-analysis of the deposited data

How the results depend on the processing

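ELF3 was called under all 12 alternative fits, with log2 fold changes of 0.50 to 0.63 and adjusted p-values of 2.68e-06 to 0.0057. Of the 5 tested factors, 3 were called with the replicate block and 3 at an unadjusted p under 0.05, 0 at |log2 fold change| of at least 1, and 1 to 2 when a library was left out (2 without replicate 1, or 2, of knockdown). Over all tested genes, 3106 of 17796 were called without knockdown replicate 1 and 4542 of 17840 without knockdown replicate 2. The shares at the unadjusted threshold and at the minimum fold were not computed, so those counts cannot be set against other genes. The replicate block gave GATA6 a log2 fold change of 0.47 and KLF5 -0.13, both then called. Leaving out a library gave 0.38 to 0.65 for GATA6 and -0.17 to -0.11 for KLF5, and cyclic loess offsets gave 0.35 and -0.08, neither called. Epithelial markers called numbered 8 with the block and 3 to 5 when a library was left out (3 without control replicate 3 and 3 without knockdown replicate 1). The ratio of CDX2 to HNF4A was 1.81 by TPM and 1.02 by CPM, which ignores length. No log2 fold change of the 5 factors or of CNOT7 reversed. Over all genes, 3030 to 6508 were called. Among the listed genes the block added calls of KLF4, UGT1A1, VWF, CLDN4, CLDN7 and SPINT2, and it changed no other call. No difference in CDX1, HNF4G or ATOH1 was detectable at this depth.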

Other observations

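Of the 18 absorptive genes below the filter on low counts, 7 had no count, 8 had 1 to 9 counts over the 6 libraries, and 3 had 10 or more. The ratio of knockdown to control counts, scaled to library size, had a counting interval above 1 for 2 of these 3. The same share over all genes below the filter was not computed. Tested genes with a log2 CPM up to 1 had a median log2 fold change of 0.156. Knockdown libraries, which held more counts, had 27401 to 27838 genes detected, and control libraries 26199 to 26957. Whether rises at such low counts are particular to these lists was therefore not tested. DPP4, the apical dipeptidyl peptidase, had 2 and 30 counts, a ratio of 13 (3.29 to 112), and MYO1A, the brush border myosin, had 6 and 27 counts, a ratio of 3.89 (1.57 to 11.5). LCT, lactase, had 5 and 9 counts, with an interval of 0.469 to 5.91.

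Of the 13 CDX target genes below the filter, 2 had no count, 5 had 1 to 9 counts, and 6 had 10 or more, of which 2 had an interval above 1 and 4 had one that held 1. CLRN3, a membrane protein, had 4 and 26 counts, a ratio of 5.62 (1.95 to 22.2), and HEPH, the ferroxidase hephaestin, had 1 and 12 counts, 10 of the 12 in knockdown replicate 3. LGALS4, galectin 4, had 14 and 20 counts, with an interval of 0.594 to 2.64. For these genes too the share over all genes below the filter was not computed. In the other lists, genes below the filter had intervals on both sides of 1. They lay below 1 for F2 (HNF4 list), TRPM5 (secretory) and COL1A2 (other cell types), and above 1 for PCK1 (HNF4 list) and OVOL1 (epithelial). The genes given here were named after their values were seen, and the intervals cover counting error and not the spread between libraries.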
